A study of Homo sapiens with 2 samples.

Results

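The genes described here are those that the authors' deposited KEGG table names under Lysine degradation, leaving out entries that the same table also names under Carbon metabolism. The pathway row held 42 symbols, of which 5 (ACAT1, ACAT2, DLD, DLST and HADHA) were shared with Carbon metabolism, so 37 symbols on 35 distinct gene identifiers remained, of 5851 symbols named in all deposited tables. They fall into 25 symbols of histone lysine methyltransferases, on 23 identifiers, and 12 lysine catabolic enzymes. The data came from RIP-seq, the sequencing of RNA that comes down with an immunoprecipitated protein, in the promyelocytic leukaemia cell line HL-60, with 1 library of RNA pulled down by an antibody against ALKBH5 (IP) and 1 of RNA from the whole lysate (input). A rabbit IgG control is described in the series design and was not analysed here. Both libraries carry the genotype label ALKBH5 and the library name prefix Ctrl, and title and library name contradict each other on which is IP and which is input; the library names were followed. The deposited tables are lists of the genes that the authors assigned to their peaks, grouped by GO term, KEGG pathway or family of RNA-binding proteins. No expression level or per-library value is given, so a gene is described as named or not named, the depth behind a name is unknown, and there is no replicate check.

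ALKBH5 demethylates N6-methyladenosine (m6A) in RNA, a mark that affects the export, stability and translation of messenger RNAs. Free lysine is broken down mainly in mitochondria, where a chain of dehydrogenases turns it into acetyl-CoA. KEGG draws histone lysine methyltransferases on the same map, where methylation of protein-bound lysine yields trimethyllysine, the precursor of carnitine. These enzymes move a methyl group onto defined lysines of histones H3 and H4, most of them with a SET domain, and so mark active or silent chromatin; several of them are recurrently altered in myeloid leukaemia.

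Lysine degradation had 42 entries on 59 background genes in the authors' deposited table, where the corrected p was 0.1. Its rich factor in the authors' deposited table was 2.14, a ratio of a term's share of listed entries to that of all terms. This ratio counts entries, and the 42 entries stand on 40 identifiers. The row ranked 5 among the 38 pathways listed by p. It thus did not pass a corrected p of 0.05, and since the members were taken from this row, its p is given as a description. Counted by distinct identifier, 40 of the 59 background genes (67.8%) were named and 19 were not. For comparison, the row Carbon metabolism had 70 distinct identifiers on 117 background genes (59.8%).

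Of the symbols, 3 are clone names that stand on the identifier of another gene. AF196970.3 carries the identifier of SUV39H1, and RP11-513D5.2 that of WHSC1L1, the older name of NSD3; each of these genes was also named by its own symbol. RP11-499P20.2 carries the identifier of SETMAR, a SET domain protein fused to a transposase remnant, whereas the symbol SETMAR was in none of the tables. Whether these entries come from RNA of the clone-named transcript or of the gene whose identifier they carry cannot be told apart from the tables. In the GO and KEGG tables together, 291 of 5237 identifiers carried more than 1 symbol.

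Methyltransferases of lysine 4 on histone H3 (H3K4), the mark of active promoters and enhancers, included the MLL and SETD1 enzymes. These are members by the rule, so their being named is no result. Of 12 H3K4 genes on a list drawn up from general knowledge, 8 were named (66.7%, exact 95% interval 34.9 to 90.1%). Among all protein-coding genes 26.9% were named, and the list contains the members. KMT2A (MLL1), the gene broken in many acute leukaemias with translocations, lies on chromosome 11 from 118436492 to 118526832 (GRCh38.p14). It was named in 7 GO terms, among them MLL1 complex and regulation of hematopoietic stem cell differentiation. A number of GO terms counts annotations among the listed terms and is no measure of bound RNA. Its close relative KMT2B was named in 4 GO terms. KMT2C and KMT2D, which act at enhancers, were named in 8 each, and both stood in histone binding and transcription coactivator activity. SETD1A was named in 7 terms and SETD1B in 5, and both, with KMT2C, stood in RNA binding. KMT2E, a relative with a SET domain but without well-established methyltransferase activity, was named in 12 terms, the highest number among the 37 symbols. All members of this group except KMT2E were entries of the GO term histone methyltransferase complex, for which the authors' deposited table gave 26 entries on 33 background genes and 0.505 as corrected p. The authors' deposited table gave regulation of megakaryocyte differentiation 34 entries on 45 genes with 0.328 as corrected p, and this term held KMT2A, KMT2B, KMT2C, KMT2D, KMT2E and SETD1A.

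Methyltransferases of lysine 9 on histone H3 (H3K9), the mark of silent chromatin, made up 7 symbols on 6 identifiers. SUV39H1, which trimethylates H3K9 in pericentric heterochromatin, and the clone symbol on its identifier had the same 10 GO terms, among them heterochromatin, rRNA processing and cell cycle. SUV39H1 lies on chromosome X from 48695554 to 48709016. The partners EHMT1 (GLP) and EHMT2 (G9a), which dimethylate H3K9 as a heterodimer, were named in 7 and 5 terms, and both stood in DNA methylation and in regulation of signal transduction by p53 class mediator. SETDB1, which silences retroelements, was named in 7 terms and SETDB2 in 8, with chromosome segregation and mitotic cell cycle among those of SETDB2. PRDM2, a zinc finger protein of the PRDM family, was named in nucleoplasm and nucleus alone.

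Lysine 36 of histone H3 (H3K36) is methylated along transcribed genes. SETD2, the enzyme that trimethylates it, was named in 7 GO terms, with mismatch repair among them. NSD1 was named in 5 terms, WHSC1 (the older name of NSD2) in 6 and WHSC1L1 in 4, and all of these NSD enzymes stood in the term chromatin. WHSC1 also stood in double-strand break repair via nonhomologous end joining, as did the clone symbol on the SETMAR identifier, which had 9 terms. ASH1L, named in 5 terms, spans 228 kb on chromosome 1.

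The remaining marks had few enzymes. EZH1, a catalytic subunit of the Polycomb repressive complex PRC2 that methylates lysine 27 of histone H3 (H3K27), was named in 6 terms, and its paralogue EZH2 was not named in any table. DOT1L, the methyltransferase of lysine 79 of histone H3 (H3K79), which has no SET domain and is recruited by MLL fusion proteins, was named in 7 terms, DNA repair among them. KMT5A and KMT5C, which methylate lysine 20 of histone H4 (H4K20), were named in 7 and 5 terms, and KMT5B was not named. Of 11 sets of close paralogues looked at, 8 were named in full: KMT2A with KMT2B, KMT2C with KMT2D, the SETD1, EHMT, SETDB and NSD genes, and the collagen enzymes PLOD and COLGALT. In the other 3 sets the unnamed member was SUV39H2, EZH2 or KMT5B. Each set was built around a member that the rule had already named, so the count says nothing beside the 26.9% of protein-coding genes named.

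The 12 catabolic enzymes had fewer GO terms, with a median of 2 (0 to 5), against a median of 7 (2 to 12) for the methyltransferase symbols. Of the lysine chain itself, ALDH7A1 (antiquitin), which oxidises aminoadipate semialdehyde, was named in 4 terms. DHTKD1, of the oxoadipate dehydrogenase complex, and GCDH, the glutaryl-CoA dehydrogenase of the next step, were each named in mitochondrion and mitochondrial matrix. AASS, the first enzyme of the chain, and the aminotransferase AADAT were not named in any table. ALDH2 and ALDH1B1, mitochondrial dehydrogenases of broad range, had 2 and 5 terms, and ALDH9A1, which acts in carnitine synthesis, had 2. The other enzymes of carnitine synthesis, TMLHE and BBOX1, were not named. These aldehyde dehydrogenases and ALDH7A1 were the only 4 members in a further KEGG pathway of the table, each in Glycolysis / Gluconeogenesis and in Valine, leucine and isoleucine degradation.

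Enzymes of hydroxylysine were named in 6 of 7 cases, all but HYKK, where 26.9% of all protein-coding genes were named; the 6 are members by the rule, and 4 of the 7 were named without the Lysine degradation row. PLOD1, PLOD2 and PLOD3 hydroxylate lysines of collagen, COLGALT1 and COLGALT2 add galactose to the hydroxylysine, and PHYKPL breaks down its phosphorylated form. They had 0 to 2 GO terms each, and PLOD1, PLOD2 and COLGALT2 had none. Without the Lysine degradation row, PLOD2 and COLGALT2 would not have been named in any table, whereas PLOD1 also stood in the family table.

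**Figure D1:**
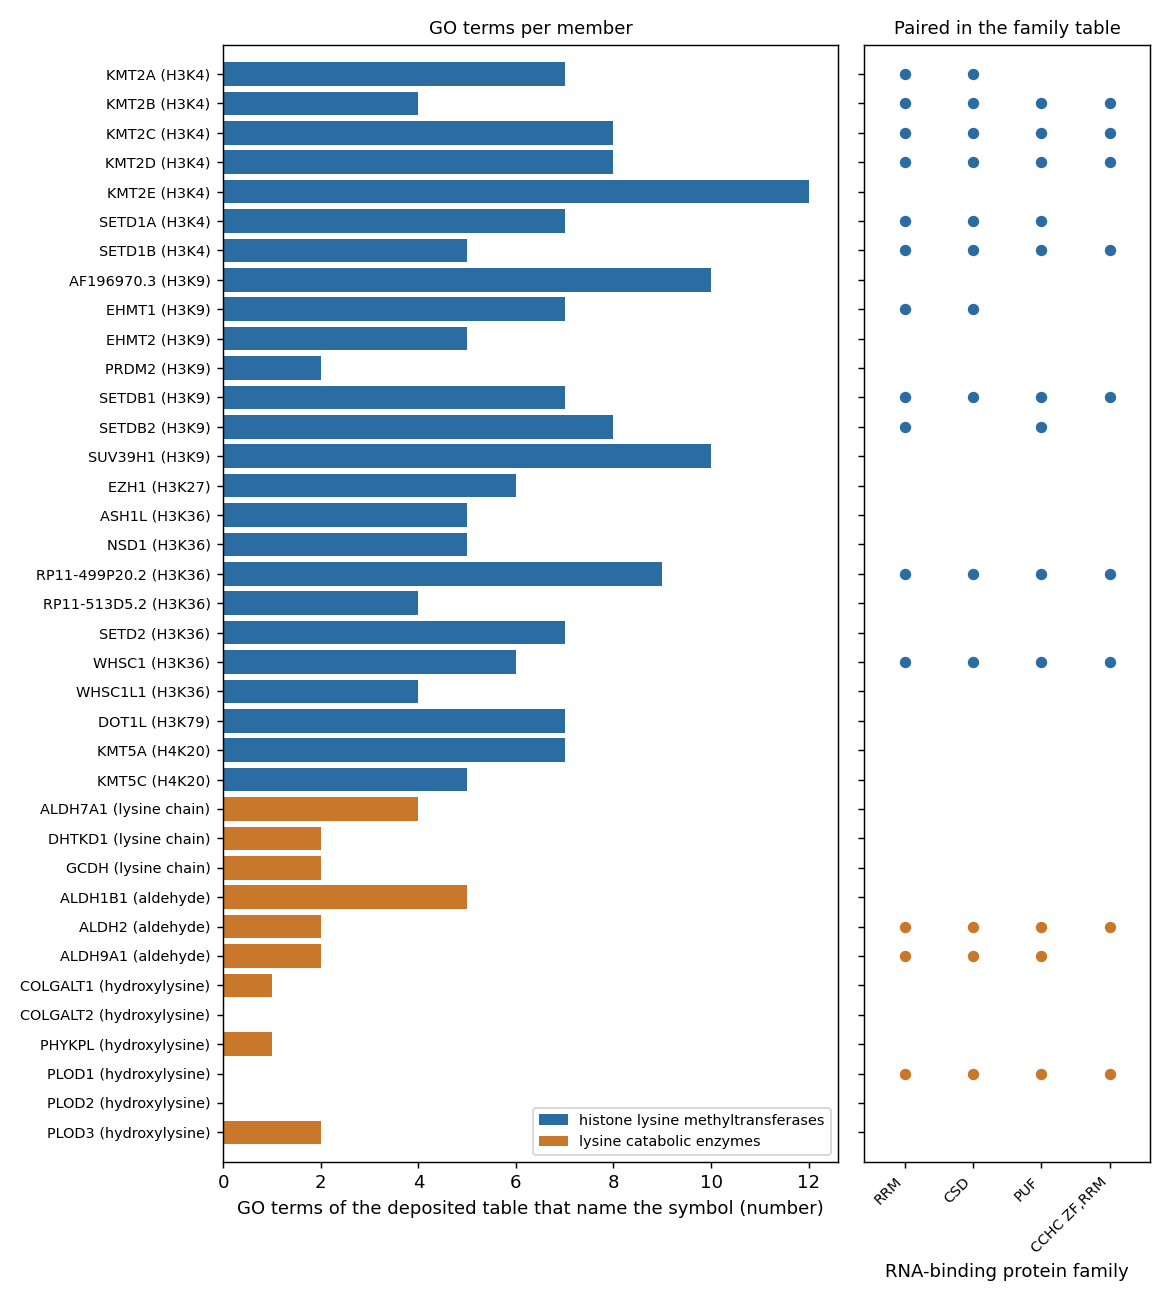
Bars give the number of GO terms of the deposited table that name each of the 37 symbols, and points mark the families of RNA-binding proteins with which the deposited family table pairs it. KMT2E has the longest bar with 12 terms. Points mark 14 symbols (37.8%), where 19.8% of all symbols of the GO or KEGG table are in the family table. Of these 14, 6 are among the 7 H3K4 symbols in the top rows, a group singled out after its values were seen.

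Of the 311 GO terms listed, 54 held at least 1 member. Methyltransferases stood in 48 of them and catabolic enzymes in 11, and 5 terms held both classes: nucleoplasm, nucleus, cytosol, cytoplasm and intracellular membrane-bounded organelle. Nucleoplasm held 24 methyltransferase symbols, all but the clone symbol on the SETMAR identifier, and 1 catabolic enzyme, ALDH1B1. Nucleus held 22 and 1. Mitochondrial matrix held 6 catabolic enzymes and no methyltransferase. Chromatin binding held 8 methyltransferase symbols; the authors' deposited table gave it a corrected p of 0.0477. Histone binding, with a corrected p of 0.0287 by the authors' deposited table, held KMT2C, KMT2D and KMT5C. Nuclear speck, at 2.04e-06 by that same deposited table of the authors, held EHMT2, KMT2E, SETD1A and SETD1B. In all, 29 of the 37 symbols (78.4%, exact 95% interval 61.8 to 90.2%) stood in at least 1 term with a corrected p under 0.05, and 88.1% of the 5614 symbols of the GO or KEGG table did.

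**Figure D2:**
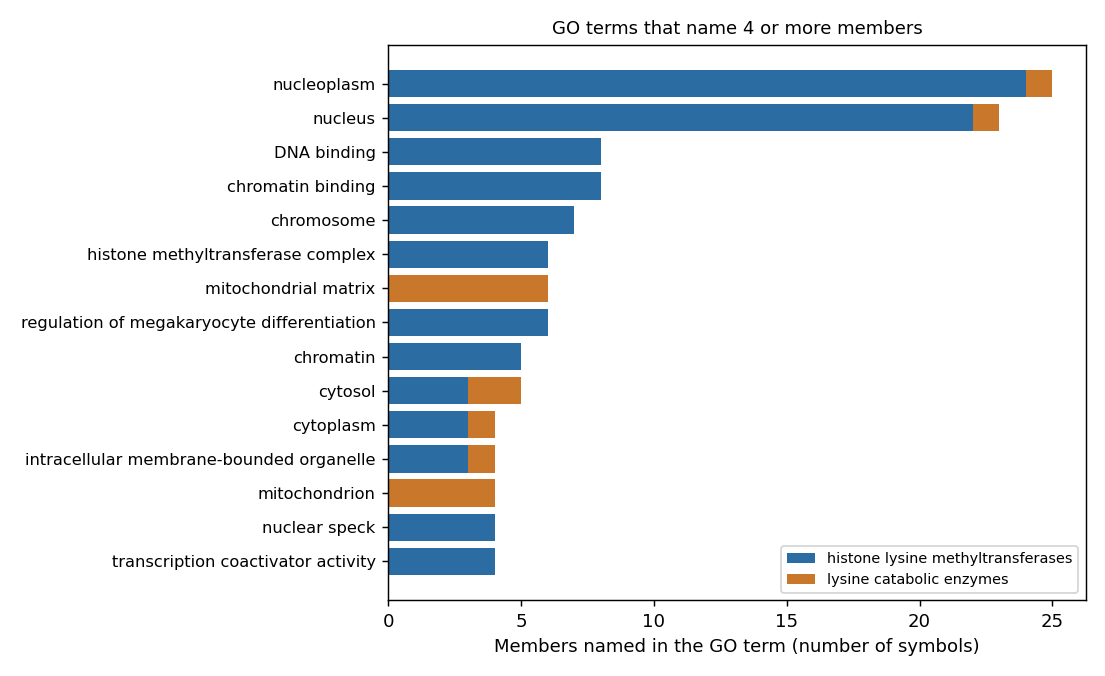
Bars count the member symbols in each GO term of the deposited table that names 4 or more of them, split into histone lysine methyltransferases and catabolic enzymes. Nucleoplasm holds 25 members, 24 of them methyltransferases, and mitochondrial matrix holds 6, all catabolic.

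The family table, which was not used to choose the members, sets each symbol beside 1 or more of 4 RNA-binding protein families, labelled RRM, CSD, PUF and CCHC ZF,RRM. It named 14 of the 37 member symbols (37.8%, exact 95% interval 22.5 to 55.2%). Among all 5614 symbols of the GO or KEGG table it named 19.8%. By class it named 11 of 25 methyltransferase symbols (44.0%, 24.4 to 65.1%) and 3 of 12 catabolic enzymes (25%, 5.49 to 57.2%). Among the H3K4 symbols it named 6 of 7: KMT2A, KMT2B, KMT2C, KMT2D, SETD1A and SETD1B, but not KMT2E. Outside this group it named 5 of 18 methyltransferase symbols (27.8%, 9.69 to 53.5%), namely EHMT1, SETDB1, SETDB2, WHSC1 and RP11-499P20.2. ALDH2, ALDH9A1 and PLOD1 were its catabolic members. The H3K4 group was singled out after its values were seen, so its count is a description with no test. The entries of Carbon metabolism were in the family table in 8 of 71 cases (11.3%, 4.99 to 21.0%), and those of the H3-K36 demethylase term in 3 of 10.

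Most of the 14 were paired with all 4 families, as were most symbols of the table. That pattern held for 9 of them (64.3%), KMT2B, KMT2C, KMT2D, SETD1B, SETDB1, WHSC1, RP11-499P20.2, ALDH2 and PLOD1, against 62.2% of the 1348 symbols of the table. SETD1A and ALDH9A1 lacked the CCHC ZF,RRM family alone. KMT2A and EHMT1 were paired with CSD and RRM alone, a pattern of 107 symbols (7.94%). SETDB2 was paired with PUF and RRM and not CSD, a pattern shown by 2 symbols of the table.

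Genes of the wider pathway were compared through lists drawn up from general knowledge, with earlier results of these data known. Of 35 histone lysine methyltransferase genes 24 were named in any table (68.6%, 50.7 to 83.1%), beside 26.9% of the 20052 protein-coding genes of the reference. Of 32 genes of lysine catabolism and its side branches 19 were named (59.4%, 40.6 to 76.3%). That count fell to 10 (31.2%, 16.1 to 50%) when only terms with a corrected p under 0.05 could name a gene, a limit under which 22.9% of protein-coding genes were named. Both lists contain the members, so these shares follow in part from the rule. Of the methyltransferase list, SMYD3 and MECOM were named without being members, in 4 and 7 GO terms. The unnamed ones beside those given above were SETD7, SMYD1, SMYD2, PRDM6, PRDM7, PRDM9, PRDM16 and SETMAR. AASDH, which stood in ATP binding and in the family table, and OGDH, a carbon metabolism enzyme, were the named catabolic genes outside the pathway row. The unnamed catabolic genes beside those given above were AASDHPPT, ALDH3A2, CRYM, ECHS1, EHHADH, HADH, OGDHL and PIPOX.

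Outside the family table, a gene can be named only through a listed term, and broad nuclear terms were among those listed. Counted by distinct identifier, 50.6% of the background genes of nucleoplasm and 42.1% of those of nucleus were named. The part of nuclear annotation in the naming of the methyltransferases was not tested. For the catabolic enzymes, the share was 46.8% in mitochondrial matrix and 39.3% in mitochondrion. All 24 named genes of the methyltransferase list also stood in nucleoplasm, so leaving out the Lysine degradation row could not lower their count. Of the 19 catabolic genes, 17 stayed named without that row.

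Partners of these enzymes were named in part, and their counts stand beside 26.9% of all protein-coding genes and 50.6% of the background genes of nucleoplasm. Of 16 subunits and partners of the MLL and SETD1 complexes 9 were named (56.2%, 29.9 to 80.2%): the core subunits ASH2L and RBBP5, MEN1 (menin), CXXC1, WDR82, HCFC1, KDM6A, PAXIP1 and KANSL1. The core subunits WDR5 and DPY30 were not, nor were BOD1, HCFC2, NCOA6, PAGR1 and PSIP1. The interval of these subunits and partners includes 50.6% but not 26.9%. Of 12 PRC2 subunits 6 were named (50%, 21.1 to 78.9%), with EED and RBBP4 of the core, JARID2, LCOR, MTF2 and PHF19. SUZ12, another core subunit, was not named, and the interval of this list includes both of those shares. Of 6 DOT1L partners, MLLT1, MLLT6 and AFF1 were named, and MLLT3, MLLT10 and AFF4 were not.

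Enzymes of other lysine and arginine marks were named as well. Lysine demethylases were named in 18 of 25 cases (72.0%, 50.6 to 87.9%), among them KDM1A (LSD1), which removes H3K4 methylation, KDM2A and KDM2B, which act on H3K36, and KDM6A and KDM6B, which act on H3K27. Lysine acetyltransferases were named in 8 of 10 cases (80%, 44.4 to 97.5%), with EP300 and CREBBP. Arginine methyltransferases were named in 6 of 10 cases (60%, 26.2 to 87.8%), with PRMT1 and PRMT5. Methyltransferases of lysines in other proteins were named in 9 of 18 (50%, 26 to 74%). Beside these counts stand 26.9% of all protein-coding genes and 50.6% of the background genes of nucleoplasm. The intervals of the arginine list and the list of other proteins include both shares. The acetyltransferase interval includes 50.6% but not 26.9%, and the demethylase interval starts at 50.6%. The calmodulin lysine methyltransferase CAMKMT was not named. Of 8 lysine transporters, the plasma membrane carrier SLC7A1 and the lysosomal SLC66A1 were named (25%, 3.19 to 65.1%), a share near the 26.9% of all protein-coding genes.

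**Figure D3:**
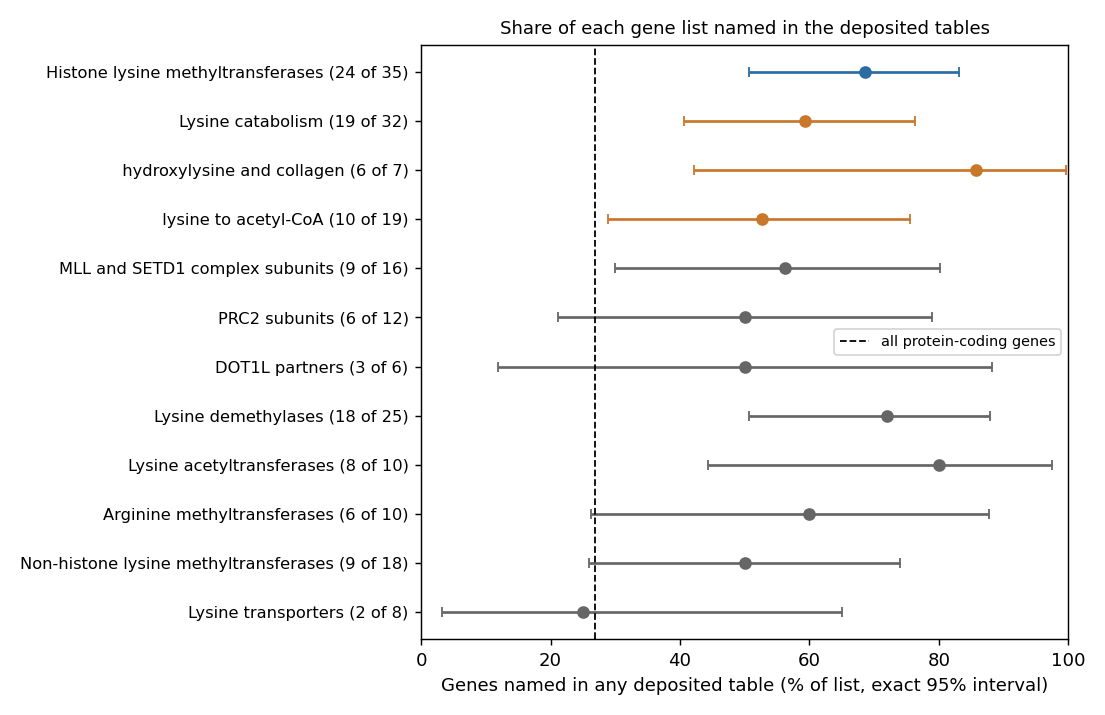
Points give the share of each gene list that is named in any deposited table, bars the exact 95% interval, and the dashed line the 26.9% of all protein-coding genes. Histone lysine methyltransferases (68.6%) and lysine demethylases (72.0%) lie above the line with their intervals. So do the lysine catabolism lists, MLL and SETD1 complex subunits and lysine acetyltransferases. The intervals of the other lists include the line, and lysine transporters (25%) lie beside it. The histone lysine methyltransferase and catabolism lists contain the members, so their place follows in part from the rule.

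The 35 member genes had a median genomic length, introns included, of 44.8 kb (5.96 to 301 kb), against 35.4 kb for other named protein-coding genes and 20.1 kb for those not named. The 23 methyltransferase genes had a median of 50.7 kb, from KMT5C with 8.25 kb to KMT2C with 301 kb, and the 12 catabolic genes one of 38.6 kb, from ALDH1B1 with 5.96 kb to COLGALT2 with 108 kb. Members of the family table had a median of 42.2 kb, against 53.4 kb for the other members. The part of length in the naming of members was not tested. The 35 genes lay on 16 chromosomes, with 6 on chromosome 1, 5 on chromosome 19 and 4 on chromosome 12.

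**Figure D4:**
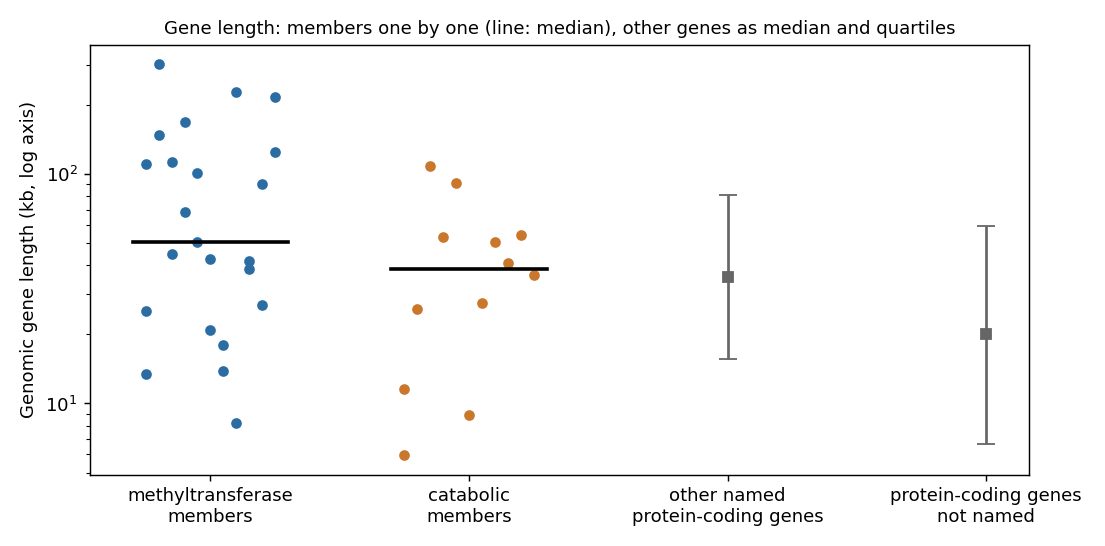
Each point is the genomic length of 1 member gene on a log axis in kb, with the median as a line; squares and bars give the median and quartiles of the other protein-coding genes. The methyltransferase median is 50.7 kb and the catabolic median 38.6 kb. Other named genes have a median of 35.4 kb, and genes not named have one of 20.1 kb.

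Promoter sequences from RefSeq (GRCh38.p14; 250 bases before to 50 after a start, the outermost that the promoter table gives for the gene) were held for 30 of the 35 genes, all but ALDH2, COLGALT2, DOT1L, NSD3 and SETD1B. For ASH1L and SETD2 this start lies inside the annotated end of the gene. The promoters are given as a description of the genes' sequence. RIP-seq measures RNA, so they are not sites of the measurement. The methyltransferase with the highest GC content, the one with the lowest, and the catabolic enzyme with the lowest CpG ratio are printed 5′ to 3′ on the gene's strand, with each CG pair in capitals. KMT2C is at chr7:152435954-152436253 on the minus strand, SETDB1 at chr1:150926013-150926312 on the plus strand and ALDH7A1 at chr5:126595170-126595469 on the minus strand.
KMT2C: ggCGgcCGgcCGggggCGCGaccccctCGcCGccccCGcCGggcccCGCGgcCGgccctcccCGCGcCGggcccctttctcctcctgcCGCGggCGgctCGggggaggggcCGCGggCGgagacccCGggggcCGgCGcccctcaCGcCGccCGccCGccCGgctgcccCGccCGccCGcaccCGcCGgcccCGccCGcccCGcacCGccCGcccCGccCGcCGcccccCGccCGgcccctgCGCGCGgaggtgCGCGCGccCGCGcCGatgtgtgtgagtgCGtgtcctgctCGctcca
SETDB1: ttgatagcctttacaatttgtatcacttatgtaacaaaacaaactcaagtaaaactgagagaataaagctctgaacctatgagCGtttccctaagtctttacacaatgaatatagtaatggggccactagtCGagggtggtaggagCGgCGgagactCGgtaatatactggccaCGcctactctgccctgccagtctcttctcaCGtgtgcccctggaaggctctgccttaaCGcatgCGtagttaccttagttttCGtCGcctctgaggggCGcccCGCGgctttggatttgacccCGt
ALDH7A1: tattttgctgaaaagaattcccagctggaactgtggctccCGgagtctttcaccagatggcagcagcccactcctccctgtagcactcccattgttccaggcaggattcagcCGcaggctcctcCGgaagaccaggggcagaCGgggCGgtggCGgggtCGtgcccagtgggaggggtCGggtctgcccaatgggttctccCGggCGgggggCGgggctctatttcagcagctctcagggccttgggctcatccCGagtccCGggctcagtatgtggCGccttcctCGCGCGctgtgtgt

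The KMT2C promoter held 56 CG pairs at a GC content of 88.7%, against 15 CG pairs and 49.0% in SETDB1 and 17 CG pairs and 64.3% in ALDH7A1. The CpG ratio (CG pairs counted over those that the C and G content would give) had a median of 0.837 in the 30 members, against 0.846 in other named protein-coding genes and 0.761 in all protein-coding genes with a promoter. By class it was 0.913 in the 20 methyltransferase promoters and 0.730 in the 10 catabolic ones. SUV39H1 (0.301) and NSD1 (0.345) had the lowest ratios among methyltransferases and NSD2 the highest (1.12). The TATA box letters TATAAA, searched on both strands, were in 0 of the 30 member promoters (exact 95% interval up to 11.6%), in 5.89% of those of other named genes and in 9.75% of all. The letters CCAAT, also on both strands, were in 10 of 30 (33.3%), against 37.3% and 36.4%.

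The labelled cell line was checked against its markers. Of 7 promyelocytic genes MPO, PRTN3 and CD33 were named, and ELANE, AZU1, CTSG and CEBPE were not. Of 15 markers of other cell types 6 were named (EPCAM, KRT8, KRT18, KRT19, CD4 and PECAM1). Beside both counts stand 26.9% of all protein-coding genes, and they do not set the labelled line apart from other cell types. Since a name carries no level, these counts neither grade the cells nor bear on the member genes, and their part in the naming of members was not tested.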

How the data were processed

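RIP-seq was measured in 2 libraries of HL-60 cells, 1 IP and 1 input, grouped by library name. Per the submitters' processing notes, hg38 was the build; which aligner, peak caller and enrichment tool were used is not given in the sources used here. Per the file headers, the authors deposited for each GO term and KEGG pathway a count of input entries and of background genes, a rich factor (a fold, or ratio), a p-value and a corrected p-value, and the entries as identifier and symbol. The deposited family table holds no number. Entries were read with Python 3.11.15 and pandas 2.3.3, and the selection and matching steps were tested on simulated data. Symbols were matched to RefSeq genes of GRCh38.p14 by symbol and then by unambiguous older symbols; 373 of 5851 had no match. Shares carry Clopper-Pearson 95% intervals (scipy 1.17.1), which cover counting error only. No test was run, since the tables give no value per sample. The naming rule took every member and any gene of the lists. The members, lists and markers were chosen with earlier results of these data known. Alternatives counted distinct identifiers, kept carbon metabolism entries, or changed which tables and terms name a gene.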

Additional observations from a re-analysis of the deposited data

How the results depend on the processing

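No paired analysis was possible because each group has 1 library and the tables hold no value per library. Counts stayed within 1.5 times in 30 of 34 comparisons with an alternative and moved further in 4. Some of these counts could hardly move, such as that of CAMKMT, which was not named under any setting. Lysine catabolism genes named fell to 10 of 32 (31.2%, 16.1 to 50%) when only terms with a corrected p under 0.05 counted. Under that limit 22.9% of protein-coding genes were named, and the histone lysine methyltransferases stayed at 24 of 35. All 24 stood in nucleoplasm, which passes the limit, so their count could not fall. Lysine transporters fell to 1 of 8 under the same limit. Members in the family table fell to 9 when all 4 families were required. The share of all genes named was 9.16% with genes of any biotype. Matching by identifier, which adds SETMAR to the methyltransferases (25 of 35), and leaving out clone-named symbols (13 members in the family table) were chosen after seeing the data. An unnamed gene may still have had a peak if none of its terms was listed, and the depth behind each name is unknown.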
